A study of Mus musculus with 6 samples.

Results

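The nuclear-encoded genes of oxidative phosphorylation were taken from the deposited table by symbol: all rows beginning with Nduf, Uqcr, Cox4 to Cox8 or Atp5, the rows Sdha to Sdhd, and Cycs, Cyc1 and Chchd10. This gave 95 of 24062 genes, of which 91 had enough counts to be tested, among 14090 tested genes. The RNA came from C57BL/6 mouse embryonic fibroblasts, which are primary connective tissue cells grown from embryos. In 3 libraries (p27 OE) the cells carried lentivirus driving p27, a cell cycle inhibitor whose gene is Cdkn1b, and were harvested at day 4, before senescence according to the submitters. The other 3 libraries (EV control, an abbreviation left unexplained in the labels) are from the same strain, tissue and day. Their titles alone carry a dataset number, also unexplained, so any difference it stands for cannot be told apart from that of p27. No source used here gives the promoter of the vector or the number of embryos or cultures, so p-values measure only the spread between these libraries, part of which may be technical.

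Oxidative phosphorylation makes most of the ATP of a resting mammalian cell in the inner mitochondrial membrane. Complex I takes electrons from NADH and complex II from succinate, ubiquinone carries them to complex III, and cytochrome c carries them on to complex IV, which reduces oxygen to water. Complexes I, III and IV pump protons, and complex V, the ATP synthase, uses the resulting gradient. Fibroblasts in culture also rely on glycolysis, and their respiratory chain is known to serve NAD+ regeneration and aspartate synthesis besides ATP.

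Total counts ran from 34920728 to 52098220 per library. The 95 genes took 0.837% to 0.847% of them in EV control and 0.742% to 0.758% with p27 OE. Cdkn1b was at 49.9 to 52.2 CPM (counts scaled to a fixed library size, with TMM factors) in EV control, against 419 to 978 CPM with p27 OE, highest in p27 OE 2. EV control 1 and p27 OE 1 lay far from the remaining libraries on the first principal component of all genes (58.9% of the variance) and expressed Xist at 317 and 477 CPM, against at most 9.57 CPM in the rest. Ddx3y, on the Y chromosome, had 0.0556 and 0.0220 CPM in these libraries and 54.3 to 65.5 CPM in the rest, so the libraries of each group differed in sex markers and their spread was not only technical. Fibroblast markers were all detected, with a summed level of 54152 to 59182 CPM in EV control and 58176 to 60111 CPM with p27 OE. Of the 10, Pdgfra and Lum fell by 0.48 and 0.23 on the log2 scale (adjusted p 0.000575 and 0.0430, edgeR with the replicate number as a block). Markers of muscle, endothelium and epithelium summed to at most 12.1 CPM in any library, with the muscle creatine kinase genes Ckm and Ckmt2 at 0. Adipocyte and neural markers summed to 28.5 to 86.9 CPM, with Ucp1 and Cidea at 0, and the neuronal tubulin gene Tubb3 rose by 0.63 in the same fit (adjusted p 0.00158). Macrophage markers summed to 46.0 to 58.6 CPM in EV control and 43.9 to 80.9 CPM with p27 OE. In the same fit the macrophage gene Emr1 and the endothelial gene Emcn rose by 0.77 and 0.93 (adjusted p 0.0326 and 0.0354). Their mean levels were low: 2.06 CPM in EV control and 3.64 CPM with p27 OE for Emr1, and 1.02 and 1.96 CPM for Emcn. Of 8 tested macrophage, 3 endothelial and 6 neural markers, 7, 2 and 5 were not called, and 1, 1 and 2 were below 0. The part of these cell types in the results was not tested. In bulk RNA, fewer cells of a type and less RNA per cell cannot be told apart.

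Genes of the respiratory chain and ATP synthase were slightly and broadly lower in p27 OE. Of 91 tested genes, 83 had a log2 fold change (p27 OE minus EV control) below 0, against 50.4% of all tested genes. The median was -0.13, a level 8.46% lower, against 0.00 over all tested genes. With the replicate number of the titles as a block (n = 3 pairs, edgeR, Benjamini-Hochberg adjustment over all genes), 14 of the 91 fell and 0 rose. Over all tested genes, 3.63% were called lower and 3.8% higher by the same rule (512 and 535 genes). With upper-quartile scaling in place of TMM these counts were 736 and 483 genes, and 24 members fell. Without the block edgeR called 0 genes of the whole table, which is 0% in either direction. Without it, 17 of the 91 were lower and 0 higher at an unadjusted p under 0.05, against 4.02% and 3.2% of all tested genes. From here on, "fell" and "called" refer to an adjusted p under 0.05 in the fit with the block, and log2 fold changes are from that fit with their SE.

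**Figure D1:**
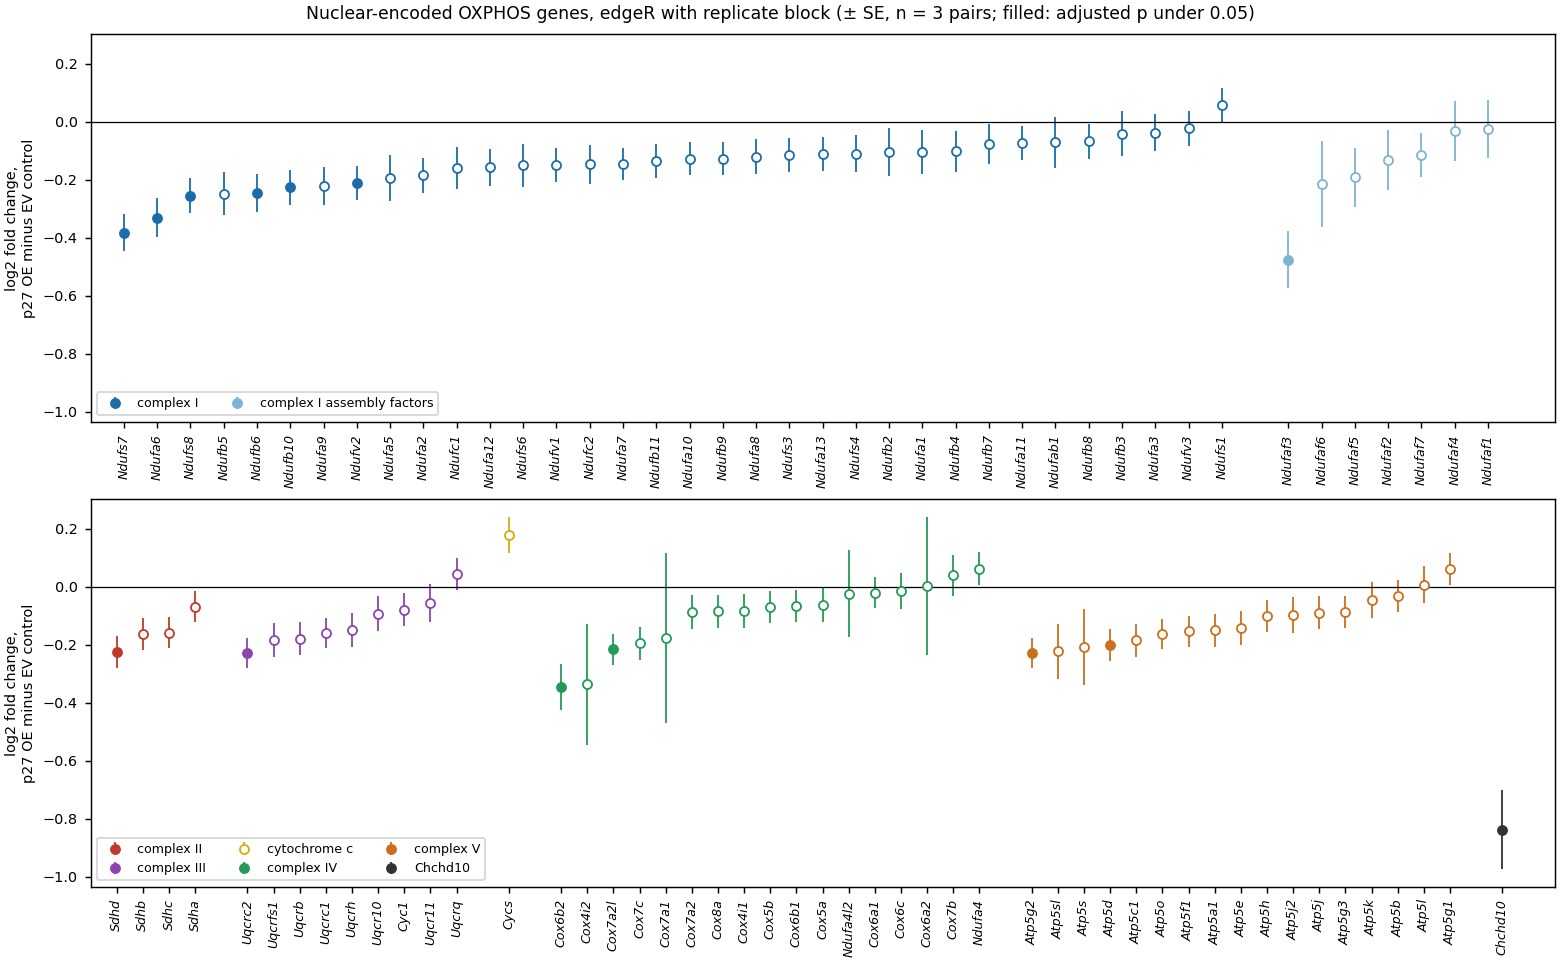
Log2 fold change (p27 OE minus EV control, edgeR with the replicate number as a block) for the tested genes but 1, grouped by complex, with the SE as a bar (n = 3 pairs). Filled points passed an adjusted p of 0.05; the 14 filled points lie below 0, and Chchd10 lies farthest down at -0.84.

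The replicates bear on how firmly these shifts can be read. In 34 of the 91 genes, each p27 OE library was below each EV control library, and in 0 was the reverse seen, against 8.28% and 6.61% of all tested genes. In 59 the p27 OE library was the lower in each of the 3 pairs of the same number, against 23.7% of all tested genes. Whether the libraries numbered 2 and 3 are true pairs is uncertain. Their deviations from the group mean correlated at 0.42 and 0.54 within a number and at 0.39 and 0.41 across numbers. These values cannot settle it, because a far-off library 1 in both groups makes such deviations alike under either numbering. Calls made with the block rest on this assumed pairing. The pairs differed in size: the median log2 ratio over the 91 genes was -0.18, -0.08 and -0.14 in pairs 1, 2 and 3, while over all tested genes it was -0.01, 0.00 and 0.00. The smallest shift was in pair 2, whose p27 OE library had the most Cdkn1b. A relation between the shift and the Cdkn1b level was not tested. Calls depended on pair 3. Without the libraries numbered 3, 2 members were called lower and 0 higher (0.746% and 1.58% of all genes), namely Chchd10 and Ndufs7. Without those numbered 1 or 2, 16 and 13 were (6.04% and 2.97% of all genes), and 1 member, Cycs, was called higher without those numbered 2 and 0 without those numbered 1 (3.51% and 6.36% of all genes).

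**Figure D2:**
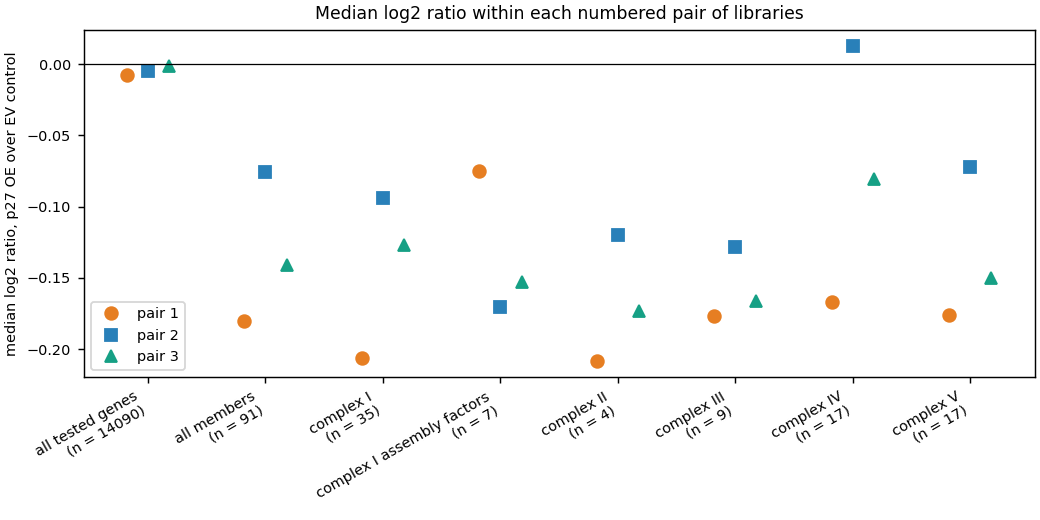
Median log2 ratio of p27 OE over EV control within each numbered pair of libraries, for all tested genes, for the 91 tested oxidative phosphorylation genes and for each complex (n gives genes). All tested genes lie near 0 in the 3 pairs, and complex IV lies at -0.17, 0.01 and -0.08 in pairs 1, 2 and 3.

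These transcripts are short, and the shift moved with transcript length across the whole table. The median transcript length was 838 bases for the 91 genes and 2695 bases for all tested genes. Among tested genes outside the set, the median log2 fold change was -0.08 for transcripts under 700 bases, -0.07 from 700 to 1000, -0.04 from 1000 to 1500, -0.02 from 1500 to 2500, 0.00 from 2500 to 4000 and 0.06 above. The members in the first 4 of these bins had medians of -0.10, -0.13, -0.19 and -0.15 (35, 19, 16 and 15 genes), lower than the other genes in each. The bin from 2500 to 4000 bases held 6 members with a median of 0.01. After a correction of each library for transcript length and GC content, with the block, the median of the 91 genes was -0.07 and that of all tested genes 0.01. The 35 and 19 members in the bins under 1000 bases then had medians of -0.02 and -0.03 (other genes 0.00 and 0.01), and the 16 and 15 members from 1000 to 2500 bases -0.15 and -0.10 (0.02 and 0.01). Of the 91, 66 were then below 0 and 7 were called lower and 0 higher (3.51% and 4.72% of all genes): Chchd10, Ndufs7, Ndufa6, Ndufaf3, Sdhd, Uqcrc2 and Cox6b2. What makes the shift follow length was not tested.

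**Figure D3:**
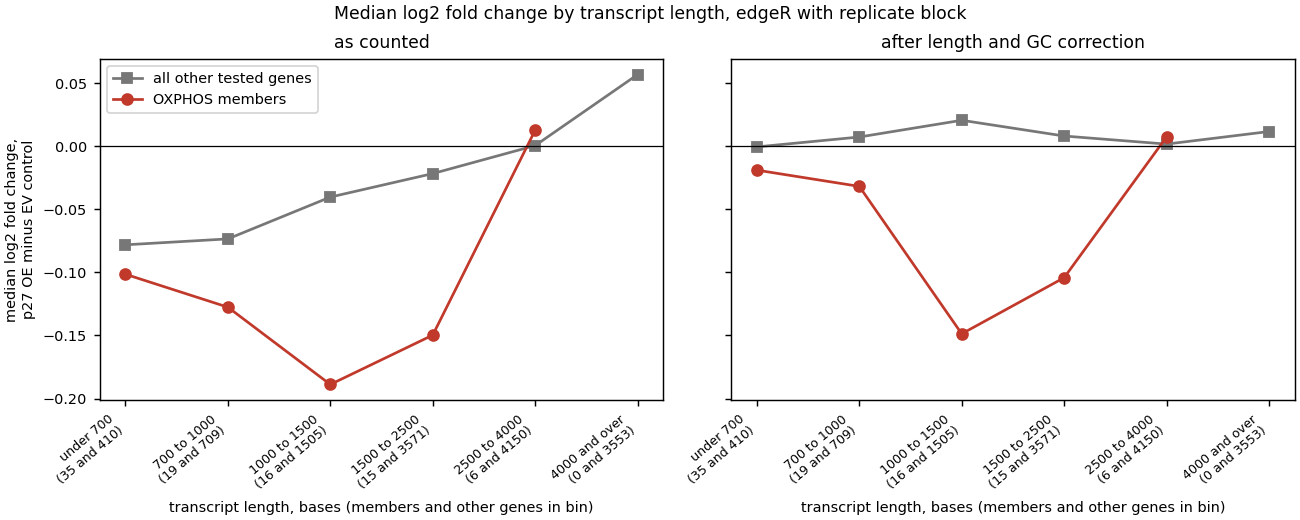
Median log2 fold change (p27 OE minus EV control, with the replicate block) by transcript length in bases, for oxidative phosphorylation genes and all other tested genes, as counted (left) and after the length and GC correction (right). As counted, other genes run from -0.08 under 700 bases to 0.06 at 4000 bases and over; after correction, members lie at -0.02 and -0.03 in the bins under 1000 bases and at -0.15 and -0.10 from 1000 to 2500 bases.

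Chchd10 had the largest change in the set. It encodes a small protein of the intermembrane space, associated with cristae and the stability of complex IV, that is known for its abundance in heart and muscle and for mutations in motor neuron disease and myopathy. It stood at 3.13, 23.7 and 25.9 CPM in EV control 1, 2 and 3, against 2.59, 12.5 and 12.1 CPM with p27 OE 1, 2 and 3. The libraries numbered 1 were far below the others in both groups, so the groups overlapped, while each pair moved down. The log2 ratio was -0.27, -0.92 and -1.10 in pairs 1, 2 and 3, and the fit gave -0.84 ± 0.14 (adjusted p 0.00519, edgeR with the block). Without the block its adjusted p was 0.870. Chchd10 is annotated at chr10:75933130-75937747, forward strand (GRCm38). Its paralog Chchd2 was at 85.1 ± 6.66 CPM in EV control, against 80.6 ± 5.93 CPM with p27 OE (mean ± SD, n = 3) and was not called (-0.08 ± 0.06).

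The upstream bases of 4 genes are shown because respiratory genes are known to be regulated together through NRF1 and ETS-family (GABP) sites. Among the called genes, 13 had a listed promoter (250 bases before to 50 after the start, RefSeq, GRCm38.p6), of which 3, Atp5g2, Ndufa6 and Sdhd, held the NRF1 core on either strand. The match in Ndufa6 lies past its start. The 120 bases before the start are printed 5′ to 3′ for Atp5g2 (chr15:102671048-102671167, reverse strand), Sdhd (chr9:50603850-50603969, reverse strand), Chchd10 (chr10:75933010-75933129, forward strand), which fell the most, and Cycs (chr6:50566570-50566689, reverse strand), which had the highest log2 fold change. Capitals mark exact matches to the NRF1 core, a pattern of 10 bases, or to CCGGAAG, the ETS core, which did not overlap. Near matches were not marked or counted, and Cycs holds a near match to the NRF1 core in the bases printed. A sequence without capitals is therefore not shown to lack an NRF1 or ETS site.
Atp5g2: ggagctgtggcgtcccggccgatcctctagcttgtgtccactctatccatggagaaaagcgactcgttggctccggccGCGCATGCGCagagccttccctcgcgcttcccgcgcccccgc
Sdhd: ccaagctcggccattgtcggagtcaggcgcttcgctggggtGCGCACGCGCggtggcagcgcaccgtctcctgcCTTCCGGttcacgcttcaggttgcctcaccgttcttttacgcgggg
Chchd10: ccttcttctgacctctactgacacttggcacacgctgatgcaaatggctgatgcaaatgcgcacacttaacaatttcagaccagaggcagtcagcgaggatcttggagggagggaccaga
Cycs: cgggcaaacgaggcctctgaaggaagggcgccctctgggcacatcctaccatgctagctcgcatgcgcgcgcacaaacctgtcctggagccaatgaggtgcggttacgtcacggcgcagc
Over the 78 members with a listed promoter, 24.4% held the NRF1 core, 21.8% the ETS core and 14.1% AAGATGGC, a YY1 core, against 10.8%, 18.9% and 5.0% of 11107 tested genes with a promoter. The median log2 fold change was -0.14 in the 18 tested members with the NRF1 core and -0.13 in those without. It was -0.09 with the ETS core and -0.14 without, and -0.15 with the YY1 core and -0.12 without.

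Complex I, the largest complex of the chain, had 35 tested genes, of which 34 were below 0, 6 fell and 26 were lower in each pair. Over all tested genes these shares were 50.4%, 3.63% and 23.7%, and they apply to each complex below. The 1 or 2 genes called in each other complex, or among the assembly factors, are too few to be told from 3.63%. The summed level of the 35 complex I genes was 1925, 1985 and 1988 CPM in EV control 1, 2 and 3 and 1702, 1826 and 1805 CPM with p27 OE 1, 2 and 3, without overlap. The genes that fell were Ndufs7, Ndufa6, Ndufs8, Ndufb6, Ndufb10 and Ndufv2. Ndufs7 and Ndufs8 encode core subunits that hold the last iron-sulfur clusters before ubiquinone. Ndufs7 stood at 40.2, 52.0 and 47.4 CPM in EV control, against 31.4, 37.5 and 37.9 CPM with p27 OE. Each p27 OE library was below each EV control library, and the log2 fold change was -0.38 ± 0.06 (adjusted p 0.00422). Ndufs8 was at 43.0, 53.9 and 50.6 CPM against 36.8, 43.8 and 42.8 CPM, an overlap through the low library EV control 1, with a log2 fold change of -0.25 ± 0.06 (adjusted p 0.0251).

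Ndufa6 encodes an accessory subunit bound to the matrix arm next to the acyl carrier protein. Its level was 49.5, 58.5 and 64.5 CPM in EV control and 40.1, 50.7 and 46.1 CPM with p27 OE, overlapping only where p27 OE 2 exceeded EV control 1 (-0.33 ± 0.07, adjusted p 0.0107). Ndufv2, a core subunit of the NADH-oxidising module, went from 63.3 ± 3.25 to 54.7 ± 2.69 CPM (mean ± SD, n = 3; -0.21 ± 0.06). The membrane-arm accessory genes Ndufb6 and Ndufb10 fell by 0.25 ± 0.07 and 0.23 ± 0.06 on the log2 scale. Smim27 lies on the opposite strand over 39.0% of the exon bases of Ndufb6, and the library kit does not mark strand, so Ndufb6 is uncertain. Ndufs8, Ndufb6, Ndufb10 and Ndufv2 were not called after the length and GC correction (adjusted p 0.0515 to 0.202) or without the libraries numbered 2 (0.0796 to 0.187). Ndufb6, Ndufb10 and Ndufv2 were also not called with DESeq2 and the block (adjusted p 0.0780, 0.0791 and 0.0997).

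The other 29 complex I genes were not called. Ndufa9, which stabilises the joint of the arms, had -0.22 ± 0.07 (adjusted p 0.0577). Ndufs1, the largest core subunit, was at 70.3, 67.8 and 64.9 CPM in EV control, against 71.4, 68.5 and 71.2 CPM with p27 OE (0.06 ± 0.06), and was the single complex I gene above 0. Per kilobase of transcript, the complex I genes had a median EV control level of 54.0 CPM, from 8.30 for Ndufb2 to 173 for Ndufa7, which was at -0.14 ± 0.05 and not called. Ndufa2, an accessory subunit of the matrix arm and among the most abundant, was at 79.8, 73.1 and 72.3 CPM in EV control, against 64.4, 68.2 and 65.5 CPM with p27 OE. The groups did not overlap, and the log2 fold change of -0.18 ± 0.06 was not called (adjusted p 0.0810).

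Assembly factors of complex I, which help build the complex but are not part of it, were less abundant, with a median of 9.30 CPM per kilobase in EV control. All 7 tested were below 0 and 1 fell. This was Ndufaf3, whose product joins early assembly of the ubiquinone-reducing module. Ndufaf3 was at 11.7, 14.4 and 15.4 CPM in EV control, against 8.48, 11.1 and 10.2 CPM with p27 OE, without overlap (-0.48 ± 0.10, adjusted p 0.0118). Impdh2 lies on the opposite strand over 3.2% of the exon bases of Ndufaf3, which these libraries cannot separate. The other assembly factors were not called, among them the most abundant per kilobase, Ndufaf2 (-0.13 ± 0.10), and the methyltransferase-like genes Ndufaf5 (-0.19 ± 0.10) and Ndufaf7 (-0.12 ± 0.08). Ndufaf1, a factor of the membrane arm, was at 11.3 ± 0.220 and 11.2 ± 0.727 CPM (-0.03 ± 0.10).

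Complex II, succinate dehydrogenase, which also works in the citric acid cycle, had its 4 genes lower in each of the 3 pairs, and 1 of them fell. Sdhd, a membrane anchor, stood at 91.4, 98.7 and 94.3 CPM in EV control, against 74.8, 88.8 and 80.0 CPM with p27 OE, without overlap (-0.23 ± 0.06, adjusted p 0.0268). The other anchor gene Sdhc had -0.16 ± 0.05, the iron-sulfur subunit gene Sdhb -0.16 ± 0.05 and the flavoprotein gene Sdha -0.07 ± 0.05 (adjusted p 0.0918, 0.0856 and 0.462). Their summed level was 476 to 503 CPM in EV control and 431 to 464 CPM with p27 OE. Per kilobase the 4 genes lay close together, from 56.9 to 81.2 CPM in EV control.

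Complex III had 9 tested genes, of which 8 were below 0, 6 were lower in each pair and 1 fell. Uqcrc2, a core protein of the matrix side, was at 141, 160.2 and 156 CPM in EV control, against 119, 138 and 134 CPM with p27 OE, without overlap (-0.23 ± 0.05, adjusted p 0.0186). Pdzd9 covers 26.6% of its exon bases on the opposite strand, which these libraries cannot separate. Uqcrc1, the partner core protein gene, had -0.16 ± 0.05, and Uqcrfs1, which encodes the Rieske iron-sulfur protein, -0.18 ± 0.06 (adjusted p 0.0800 and 0.0733). Cyc1, the gene of cytochrome c1, was at 94.8 ± 9.23 CPM in EV control, against 89.4 ± 4.03 CPM with p27 OE (-0.08 ± 0.06, adjusted p 0.425). The small subunit gene Uqcrb had -0.18 ± 0.06 (adjusted p 0.0707). Uqcrh, which encodes the hinge protein at cytochrome c1, was the most abundant complex III gene per kilobase, at 234 CPM per kilobase in EV control. It stood at 115, 104 and 114 CPM in EV control, against 96.6, 103.5 and 99.8 CPM with p27 OE, without overlap, and was not called (-0.15 ± 0.06, adjusted p 0.143). Uqcr10 had -0.09 ± 0.06. Uqcrq, another small subunit, was higher in each pair by small amounts (0.04 ± 0.05) and was not called.

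Cycs, the somatic cytochrome c gene, had the highest log2 fold change of the 91. Cytochrome c moves electrons from complex III to complex IV and, once released to the cytosol, starts caspase activation. It stood at 59.0, 71.1 and 63.5 CPM in EV control, against 66.9, 74.0 and 77.9 CPM with p27 OE. It was higher in each of the 3 pairs, the groups overlapped, and the log2 fold change of 0.18 ± 0.06 was not called (adjusted p 0.0935). Without the libraries numbered 2 its adjusted p was 0.0459.

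**Figure D4:**
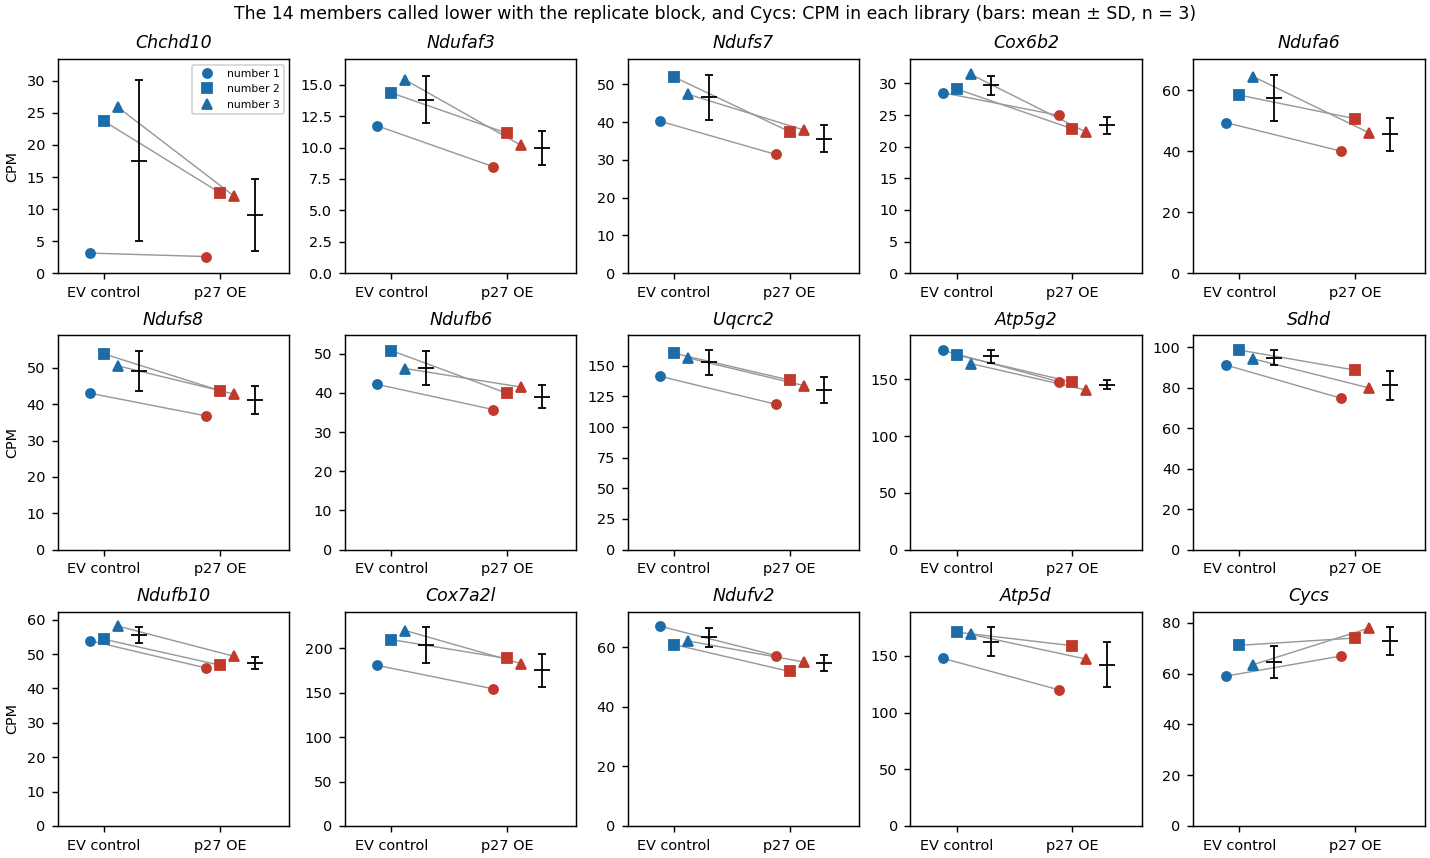
CPM in each library for the 14 genes that fell and for Cycs, with lines joining libraries of the same number and bars for the mean ± SD (n = 3). Each of the 14 is lower in p27 OE in every pair. They were picked as lower by a fit of these same pairs, so this adds no support. In 9 of them the groups do not overlap, against 37.4% of the 91 genes and 8.28% of all tested genes (p27 OE lower). Chchd10 sits near 3 CPM in both libraries numbered 1.

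Complex IV, cytochrome c oxidase, had the median nearest 0 of the 5 complexes, a difference that was not tested. Of its 17 tested genes 14 were below 0, 6 were lower in each pair and 2 fell, and the median was -0.07. After the length and GC correction the median was 0.02, with 5 of 17 below 0. The medians of complexes I, II, III and V also moved toward 0 with that correction, to -0.07, -0.11, -0.08 and -0.06. The summed level of complex IV was 1577 to 1642 CPM in EV control and 1422 to 1619 CPM with p27 OE, with overlap. Cox7a2l fell. It encodes a relative of subunit 7a studied for its part in respiratory supercomplexes, and C57BL/6 mice are known to carry a shortened form. It was at 181, 209.8 and 220.0 CPM in EV control, against 154, 189 and 183 CPM with p27 OE (-0.22 ± 0.05, adjusted p 0.0275, and 0.0561 after the length and GC correction). Cox6b2, an isoform known from testis, also fell. Its level was 28.5, 29.1 and 31.5 CPM in EV control and 24.96, 22.8 and 22.3 CPM with p27 OE, without overlap (-0.35 ± 0.08, adjusted p 0.0183). The common isoform gene Cox6b1 was at 135 ± 6.78 and 129.5 ± 10.7 CPM (-0.07 ± 0.05, and 0.01 after that correction) and was 4.08 times as abundant as Cox6b2 per kilobase in EV control.

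Several subunits of complex IV exist as a common form and a form known from muscle, lung or low oxygen. Cox4i1, the common form of the regulatory subunit 4, was 38.4 times as abundant per kilobase as Cox4i2 in EV control, Cox6a1 137 times as abundant as the muscle form Cox6a2, and Cox7a2 27.2 times as abundant as the muscle form Cox7a1. None of these 6 genes was called. Cox4i1 had -0.08 ± 0.06 and Cox6a1 -0.02 ± 0.05, and both were above 0, at 0.03 and 0.10, after the length and GC correction. Cox7c, a small subunit gene, was at 74.4, 77.9 and 78.4 CPM in EV control, against 68.5, 68.2 and 64.6 CPM with p27 OE, without overlap, and missed the threshold (-0.20 ± 0.06, adjusted p 0.0571). Cox6a2 and Cox7a1 were under 3 CPM in each library, and summed muscle markers were at 3.53 to 4.52 CPM in EV control and 4.15 to 6.15 CPM with p27 OE. Ndufa4l2, a relative of the complex IV subunit gene Ndufa4 that is known as a hypoxia target, was at 121, 91.2 and 108 CPM in EV control, against 107, 119 and 88.8 CPM with p27 OE, with no common direction (-0.02 ± 0.15). Ndufa4 itself had 0.06 ± 0.06.

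The complex V group, taken by Atp5 symbols, had 17 tested genes, of which 15 were below 0, 13 were lower in each pair and 2 fell. It includes Atp5s and Atp5sl (-0.21 and -0.22), which RefSeq names Dmac2l and Dmac2. Under those names they are not ATP synthase subunits, so the counts, median and sum are not of the ATP synthase alone. The summed level of the 17 genes was 3168, 3212 and 3206 CPM in EV control and 2844, 3068 and 3008 CPM with p27 OE, without overlap. Atp5g2, 1 of the 3 genes for the membrane ring subunit c, was at 176, 171 and 164 CPM in EV control, against 148, 148 and 141 CPM with p27 OE (-0.23 ± 0.05, adjusted p 0.0192). Its sister genes, which encode the same mature protein, were not called: Atp5g3 had -0.09 ± 0.06 and Atp5g1 0.06 ± 0.06. Atp5d, the gene of the central stalk subunit delta, was at 148, 171 and 169 CPM against 120, 159 and 147 CPM, with overlap (-0.20 ± 0.06, adjusted p 0.0451). Neither Atp5g2 nor Atp5d was called after the length and GC correction (adjusted p 0.160 and 0.378), and Atp5d was not called without the libraries numbered 1 (0.0698) or with RLE scaling or DESeq2 in place of TMM and edgeR.

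Atp5b, the catalytic beta subunit, was the most abundant of the 91 genes per kilobase, at 506 CPM per kilobase in EV control. It stood at 969.7 ± 74.2 CPM in EV control and 947 ± 75.4 CPM with p27 OE (-0.03 ± 0.06). Atp5a1, the alpha subunit, was at 627 ± 43.3 and 564 ± 12.6 CPM, without overlap between the groups, and was not called (-0.15 ± 0.06, adjusted p 0.118). The gamma subunit gene Atp5c1 had -0.19 ± 0.06 (adjusted p 0.0605).

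**Figure D5:**
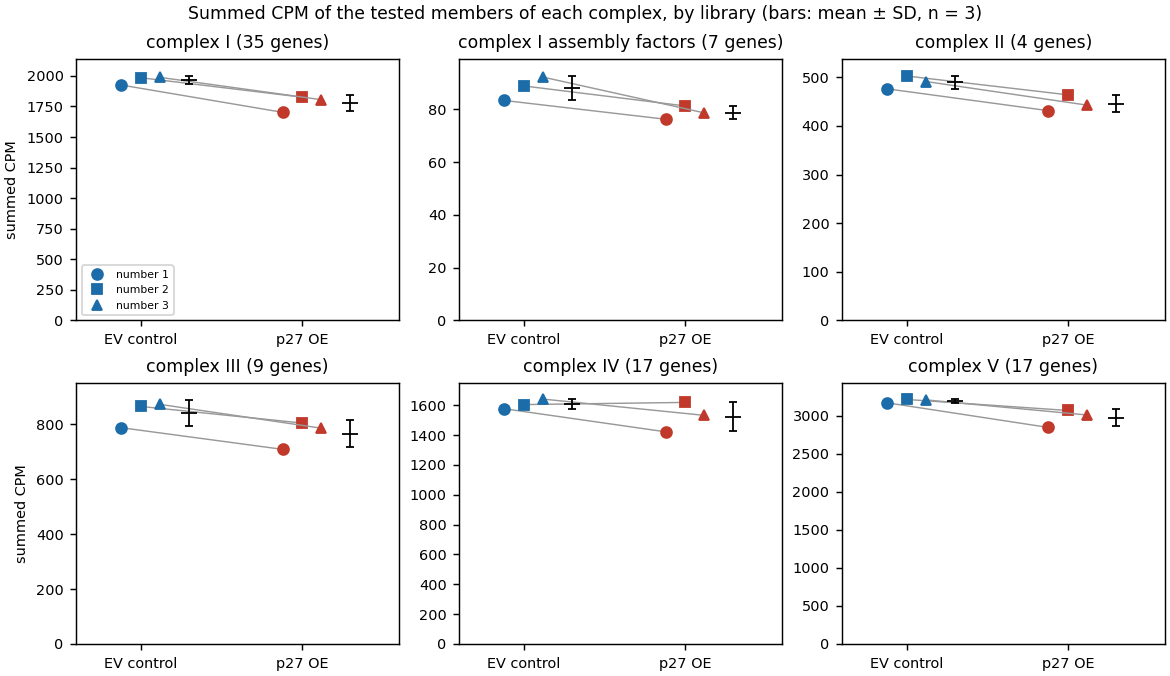
Summed CPM of the tested genes of each complex by library, with lines joining libraries of the same number and bars for the mean ± SD (n = 3), on axes that start at 0. The groups do not overlap for complexes I, II and V and the assembly factors, and they overlap for complexes III and IV.

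Genes that work beside the chain were read from lists of the same pathway. Over all tested genes, 3.63% were called lower and 3.8% higher, and in lists this short 1 call cannot be told from these shares. Of 39 tested assembly factors outside the symbol rule, 0 were called and the median was -0.03. Of 17 regulators of mitochondrial biogenesis 1 rose and 0 fell (median 0.01). This was Pprc1, a coactivator of the PGC-1 family responsive to growth signals, which went from 68.0, 77.2 and 73.8 CPM to 84.6, 83.0 and 87.3 CPM, without overlap (0.22 ± 0.06, adjusted p 0.0390). Nrf1 had 0.06 ± 0.07, the GABP subunit gene Gabpa 0.17 ± 0.06 (adjusted p 0.117) and the mitochondrial transcription factor gene Tfam -0.01 ± 0.07. Ppargc1b, a coactivator of respiratory genes, was at 2.15 ± 0.764 and 1.44 ± 0.401 CPM (-0.55 ± 0.22, adjusted p 0.151).

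Of 17 citric acid cycle and pyruvate dehydrogenase genes 1 fell and 0 rose, with a median of -0.05 (3.63% and 3.8% of all tested genes). Idh2, the mitochondrial NADP-dependent isocitrate dehydrogenase, stood at 217, 203 and 202 CPM in EV control, against 165, 157 and 163 CPM with p27 OE. The groups did not overlap, and the log2 fold change was -0.36 ± 0.05 (adjusted p 0.00174, and 0.00329 after the length and GC correction). Of 13 coenzyme Q synthesis genes 1 fell, the monooxygenase gene Coq6, from 19.0 ± 0.715 to 15.2 ± 0.282 CPM (-0.32 ± 0.08, adjusted p 0.0331). Among 14 genes of cristae organisation and relatives of Chchd10, 0 were called and 12 were below 0, against 50.4% of all tested genes. Their median was -0.09, and -0.06 after the length and GC correction. The subunits encoded by mitochondrial DNA were not analysed here.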

How the data were processed

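RNA was column-extracted and made into TruSeq RNA v2 libraries, per the labels' protocols. The authors deposited raw counts per gene symbol, whole numbers without normalization, in 1 table with 6 library columns. Reads were aligned to or counted on the mm10 build with software that includes featureCounts 1.4.6 (Subread), TopHat2 2.0.14 and Bowtie2 2.2.6, per the submitters' processing notes. No source used here gives the gene annotation, whether strand was used or how multi-mapping reads were counted. Libraries were grouped by title.

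Genes were kept with filterByExpr (minimum count 10, minimum total 15), scaled by TMM and tested with the edgeR 4.0.16 quasi-likelihood F test (robust, two-sided, Benjamini-Hochberg over all 14090 genes, threshold 0.05) in R 4.3.3. The planned main fit had no block. A planned second fit had the replicate number as a block. Deviations from the group mean (log2 CPM, prior count 2) correlated at 0.77, 0.42 and 0.54 between libraries numbered 1, 2 and 3. The numbers were taken as pairs, which these values back for number 1 only. Deviations cancel out within a group, so a far-off library 1 in both groups makes libraries 2 and 3 resemble each other under either numbering. With the numbers 2 and 3 crossed, the correlations were 0.39 and 0.41. The pairing of numbers 2 and 3 was therefore assumed. The SE is the log2 fold change divided by the square root of F.

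Transcript length and GC content are medians over basic coding transcripts of GENCODE M21 (GRCm38, the assembly mm10 names), matched for 23684 of 24062 symbols. The correction removed a loess trend (span 0.3) from each library. Alternatives were scaling by RLE or upper quartile, testing all genes, at least 1 CPM in 3 libraries, DESeq2 1.42.0, limma-voom 3.58.1, each with and without the block, and leaving out libraries. The fits were tested on simulated data.

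Named genes are Chchd10, Cycs and Cyc1, the called members, in each complex the 3 with the smallest p and the 3 most abundant per length, and called members of the pathway lists. Others named were chosen after their values were seen. The values of 1 member are not reported here, and it is counted in the totals. The members and lists were chosen with earlier results of these data known.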

Additional observations from a re-analysis of the deposited data

How the results depend on the processing

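The median log2 fold change of the members stayed below 0 in every alternative run, from -0.15 to -0.06. It moved by more than the spread between pairs in 1 kind of alternative, the length and GC correction, to -0.063 without the block and -0.067 with it. Without the replicate block, members called stayed at 0 with RLE and upper-quartile scaling, both filters, DESeq2, limma-voom, the correction and each library left out. All genes called without the block were 1 without a filter and 89 with DESeq2, and between 0 and 1 with a library left out.

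With the replicate block, 14 members and 1047 genes were called. The block combined with RLE gave 13 and 1042, with upper-quartile scaling 24 and 1219, without a filter 19 and 1416, with at least 1 CPM in 3 libraries 14 and 1018, with DESeq2 10 and 830, with limma-voom 14 and 1042, and with the correction 7 and 1159. Without the libraries numbered 3, 2 or 1 it called 2, 14 and 16 members and 330, 928 and 1741 genes. The cause was not tested.

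Among named genes near 0 the direction changed in 16 of 864 values. With the correction Cox4i1, Cox6a1 and Cox6b1 had 0.027, 0.10 and 0.016, with the block as well 0.028, 0.10 and 0.015, and Uqcr10 had 0.00020 without it. Leaving out a library, Uqcrq ranged from -0.079 to 0.16, Atp5b from -0.096 to 0.031, Cox6a1 from -0.089 to 0.066 and Cox6b1 from -0.10 to 0.00086. The largest SEs, 0.21, 0.24 and 0.29, were those of Cox4i2, Cox6a2 and Cox7a1, whose pairs moved in different directions. Cox6a2 and Cox7a1 had 27 to 133 counts per library.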

Other observations

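Of the 95 genes, 4 were listed at 0 counts in each of the 6 libraries. Cox8c and Cox7b2 are isoforms known from testis and Cox8b from heart, muscle and brown fat. The fourth, Ndufs5, encodes a complex I subunit that respiring cells use generally. No source used here says how its reads were treated.

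Cox6b2 differs from the other tissue-restricted complex IV isoforms in level. It was at 22.3 to 31.5 CPM over the 6 libraries, while Cox4i2 was at 3.45 to 7.41 CPM and Cox6a2 and Cox7a1 at 0.593 to 2.66 CPM. No exon overlap of Cox6b2 with another gene was found in GENCODE M21 (GRCm38).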
